A study of Mus musculus with 16 samples.

Results

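The tumors described here are 15 mouse small cell lung tumors split by their level of Trp53 RNA. Of the 16 tumors in the series, the 4 with at least 20 FPKM of Trp53 are called Trp53-high and 11 with less are called Trp53-low. The remaining tumor, sgControl tumor 1, was left out because 88.9% of its summed FPKM came from the single entry Mir6236, and its median over the tested genes was 2.38 FPKM. In the other 15 tumors that median was 10.0 to 12.4 FPKM. FPKM are read fragments divided by transcript length and by library size. The members were thus chosen by a measured value, the deposited level of Trp53.

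All mice were H11-LSL-Cas9 animals, which carry a Cre-inducible Cas9 transgene on a B6;129 background, aged 2 to 4 months when they received adenovirus through the trachea. The virus was labelled sgControl RPP or sgKdm5a RPP and also carried CMV Cre. The labels do not spell out RPP. From what is known of the model it is read as guides to Rb1, Trp53 and Rbl2. On that reading all 15 tumors share these guides as well as Cas9 and Cre. The CMV promoter is active in many cell types, so any infected lung cell could have been edited. Both Trp53 classes hold both labels: 2 sgControl-labelled and 2 sgKdm5a-labelled tumors are high, and 5 and 6 are low. Each column carries its own label number in the table header. What the number stands for is not stated, and each tumor was taken as 1 animal. The tumors were bulk samples, in which fewer cells of a type and less RNA per cell cannot be told apart. Which edits each tumor carried was not measured in this table.

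p53, the product of Trp53, is a transcription factor that stress stabilizes and that switches on genes of cell cycle arrest, apoptosis and repair. Its activity is set mainly at the protein level, where Mdm2 marks it for degradation. Small cell lung cancer is a neuroendocrine tumor in which p53 and the retinoblastoma protein are almost always inactivated. A frameshift made by Cas9 does not by itself remove the RNA, although a premature stop codon can expose a transcript to nonsense-mediated decay.

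Trp53 stood at 37.7 FPKM in sgControl tumor 6 and 53.4 FPKM in sgControl tumor 7. It stood at 30.7 FPKM in sgKdm5a tumor 2 and 28.9 FPKM in sgKdm5a tumor 3. In the 11 low tumors it ranged from 4.83 to 14.4 FPKM with a median of 9.40 FPKM. The high tumors averaged 37.7 ± 11.2 FPKM (SD, n = 4) and the low tumors 9.30 ± 2.69 FPKM (SD, n = 11). These values made the classes and are given as a description, with no test. The tumors nearest to the limit were sgKdm5a tumor 3 on the inside, at 28.9 FPKM, and sgControl tumor 5 on the outside, at 14.4 FPKM.

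**Figure D1:**
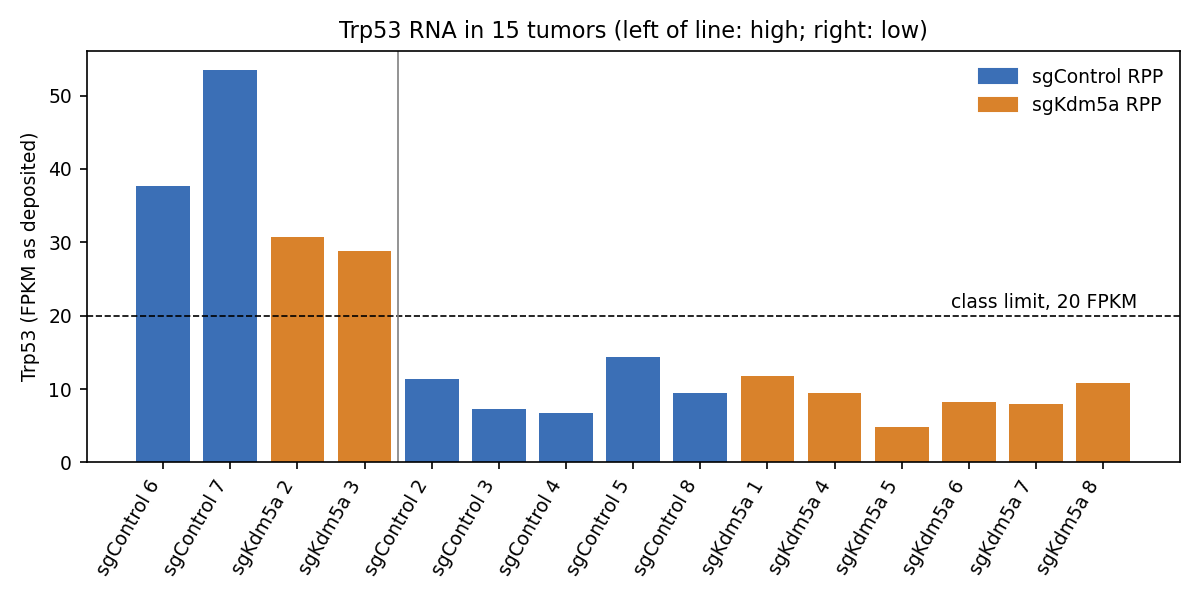
Trp53 in FPKM as deposited (vertical axis, from 0) in each of 15 tumors, colored by sgRNA label, with the class limit of 20 FPKM as a dashed line. The 4 high tumors lie between 28.9 and 53.4 FPKM and the 11 low tumors between 4.83 and 14.4 FPKM.

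The promoter window of Trp53 is shown because it is shared with a neighbour whose RNA is described next. It comes from RefSeq, build GRCm38.p6, chr11:69580109-69580408 on the plus strand, and runs from before the start of the gene to just inside it. Capitals mark CACGTG, the E-box bound by MYC family proteins, which reads the same on both strands. Of the tested genes with a window, 11.7% held this hexamer, against 8.09% of all genes with one. The window overlaps that of Wrap53 on the opposite strand by 208 of its 300 bases.
Trp53: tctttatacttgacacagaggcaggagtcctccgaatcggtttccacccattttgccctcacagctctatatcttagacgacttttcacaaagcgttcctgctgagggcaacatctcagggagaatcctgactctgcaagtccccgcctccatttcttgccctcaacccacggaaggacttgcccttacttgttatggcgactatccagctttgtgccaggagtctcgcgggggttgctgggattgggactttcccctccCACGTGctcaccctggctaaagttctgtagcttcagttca

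Wrap53, which lies head to head with Trp53 and encodes a telomerase and Cajal body protein, did not follow the split between classes. Its scaled level was 15.5, 11.7, 14.5 and 12.8 FPKM in sgControl tumors 6 and 7 and sgKdm5a tumors 2 and 3. In the low tumors it ran from 5.94 to 16.4 FPKM with a median of 10.5 FPKM, so the classes overlapped. From here on levels are FPKM after each tumor was scaled to a common median, and differences are high minus low on log2(scaled FPKM + 1), from limma with the sgRNA label as covariate and Benjamini-Hochberg adjustment over all tested genes. The difference for Wrap53 was 0.34 ± 0.18 (SE, adjusted p = 0.338).

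Of the 20 genes nearest to Trp53 on its chromosome, 10 on each side in the gene order of GRCm38.p6, 15 were tested and none passed the adjusted threshold of 0.05 in limma. Over all 13103 tested genes, 0.137% passed as higher and 0.0305% as lower. At an unadjusted p under 0.05, 4 of the 15 were higher and 0 lower, where 10.5% of all tested genes were higher and 7.74% lower. The median of the 15 was 0.29, with 12 above 0 and 3 below. Over all tested genes the median was 0.02, and 52.5% lay above 0. Eif4a1, a translation initiation helicase, was at 447, 468, 672 and 538 FPKM in the high tumors and at 226 to 504 FPKM in the low tumors, with a low median of 312 FPKM. One low tumor, sgControl tumor 3, lay inside the high range, and the difference was 0.71 ± 0.20 (SE, adjusted p = 0.109). Efnb3, an ephrin ligand, differed by 1.37 ± 0.31 (SE, adjusted p = 0.0786), but 6 low tumors reached 1 FPKM and it passed the filter only through the high tumors. The difference was 1.12 ± 0.33 (SE, adjusted p = 0.112) for Sat2, an acetyltransferase.

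Across the transcriptome 18 genes were higher and 4 were lower in the Trp53-high tumors. Together these 22 genes were 0.168% of those tested. The classes did not overlap for 15 of the 18 higher genes and for all 4 of the lower ones. Over all tested genes every high tumor lay above every low tumor for 0.527% and below for 0.343%. A gene was tested where at least 8 tumors held 1 FPKM. Of the 18 higher genes, 5 met this only with the help of the high tumors, as did 548 of all tested genes. Whether such a gene was tested thus depended on the high tumors. Those of these 5 higher genes that are described below are given as values and not as support. Of the other 13, the classes did not overlap for 12, and all 4 lower genes met the filter in the low tumors alone. The calls rest on few tumors: without sgControl tumor 7, 0 genes passed in limma, and 1336 were higher and 874 lower at an unadjusted p under 0.05. Without sgKdm5a tumor 2, 0 passed in limma, and 756 were higher and 505 lower at that level. Without sgControl tumor 3 the counts were 128 and 64, and without sgKdm5a tumor 5 they were 136 and 65. Leaving out any one of the other 11 tumors gave 6 to 16 higher and 1 to 6 lower genes.

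The label numbers fall into 2 series, 190 to 238 and 839 to 893. With the series as a further covariate, 10 genes were higher and 1 lower. Within label numbers 190 to 238, which hold 3 of the high tumors, 0 genes passed in limma. At an unadjusted p under 0.05, 1014 were higher and 952 lower. The other series holds 1 high tumor, which is too few for a value of its own. At the unadjusted level the balance also depended on the scaling, with 1373 genes higher and 1014 lower after scaling and 1059 higher and 1271 lower on FPKM as deposited.

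Nsg2, a protein of neuronal endosomes, was at 23.1, 42.5, 111 and 39.0 FPKM in the high tumors. Its low tumors ran from 1.84 to 16.5 FPKM around a median of 5.89 FPKM, without overlap, for a difference of 2.78 ± 0.44 (SE, adjusted p = 0.0236). sgKdm5a tumor 2 had the highest level.

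Several other higher genes are known from neurons. Tubb3, the neuronal beta-tubulin, was at 115, 119, 132 and 214 FPKM in the high tumors. Its low tumors held 4.50 to 56.6 FPKM, with a median of 32.9 FPKM. Thus even the lowest high tumor exceeded every low tumor, and the difference was 2.46 ± 0.45 (SE, adjusted p = 0.0468). Rtn1, a reticulon of the endoplasmic reticulum, was at 80.4, 77.8, 145 and 78.7 FPKM against 7.91 to 53.6 FPKM, a difference of 2.32 ± 0.39 (SE, adjusted p = 0.0249). Cplx1, a complexin that clamps vesicle fusion, rose by 1.87, and the monoamine transporter Slc29a4 rose by 1.64 with 1 low tumor inside the range of the high tumors. Smaller increases were found for Ncdn (neurochondrin, 1.42), Dlgap3 (a postsynaptic scaffold, 1.23) and Rufy3 (a protein of neuronal polarity, 1.06). Dpysl4, of the collapsin response mediator family of axon guidance, differed by 2.68, the endocytic adaptor Sgip1 by 2.02 and the channel-binding protein Kcnip4 by 2.01. These 3 genes passed the filter only through the high tumors, since 4, 5 and 7 low tumors reached 1 FPKM, and the range of Kcnip4 overlapped with 1 low tumor. No list of neuronal genes was tested, so these roles are background to single genes. Other genes known from neurons lay lower, none past the threshold. Snph differed by -1.33 ± 0.29 (SE, adjusted p = 0.0786), Syt1 by -0.45 (adjusted p = 0.407) and Snap25 by -0.29 (adjusted p = 0.604). In the neuroendocrine list described below, 11 of 25 tested members lay above 0.

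Further higher genes have other roles. Mfap2, a glycoprotein of extracellular microfibrils, stood at 57.6, 80.4, 43.0 and 22.6 FPKM in the high tumors and at 2.47 to 20.5 FPKM in the low tumors, with a low median of 7.45 FPKM. sgKdm5a tumor 3 was the lowest of the high class and still lay above sgControl tumor 3, the highest of the low class. The difference was 2.47 ± 0.36 (SE, adjusted p = 0.0207). Rragc, a Rag GTPase that signals amino acids to mTORC1, was at 95.9, 74.1, 90.4 and 74.1 FPKM against 32.6 to 61.4 FPKM, with a low median of 37.6 FPKM. Its difference of 1.06 ± 0.15 (SE, adjusted p = 0.0196) was small beside that of Nsg2 but had the narrowest error of the 18. Trnau1ap, which binds the selenocysteine tRNA, rose by 1.11, the zinc finger gene Zfp90 by 1.10 and 2310022B05Rik by 1.04. Bmp8b, a bone morphogenetic protein, differed by 1.79 with 1 low tumor inside the high range, but 4 low tumors reached 1 FPKM and it passed the filter only through the high tumors.

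Khdrbs3, an RNA-binding regulator of splicing, fell by 1.41. It was at 63.0, 37.4, 17.0 and 24.9 FPKM in the high tumors and at 64.3 to 120 FPKM in the low tumors, with a low median of 78.8 FPKM. sgControl tumor 6 came within a small margin of the lowest low tumor. Arhgef5, a guanine nucleotide exchange factor, was at 2.79, 3.13, 2.96 and 3.75 FPKM against 4.03 to 14.2 FPKM, and the difference was -1.29 ± 0.21 (SE, adjusted p = 0.0236). Isg20, an interferon-induced exonuclease, fell by 1.20, and C330007P06Rik fell by 1.0. The next gene by p, the integrin subunit Itgb5, missed the threshold with a difference of -1.06 ± 0.21 (SE, adjusted p = 0.0573).

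**Figure D2:**
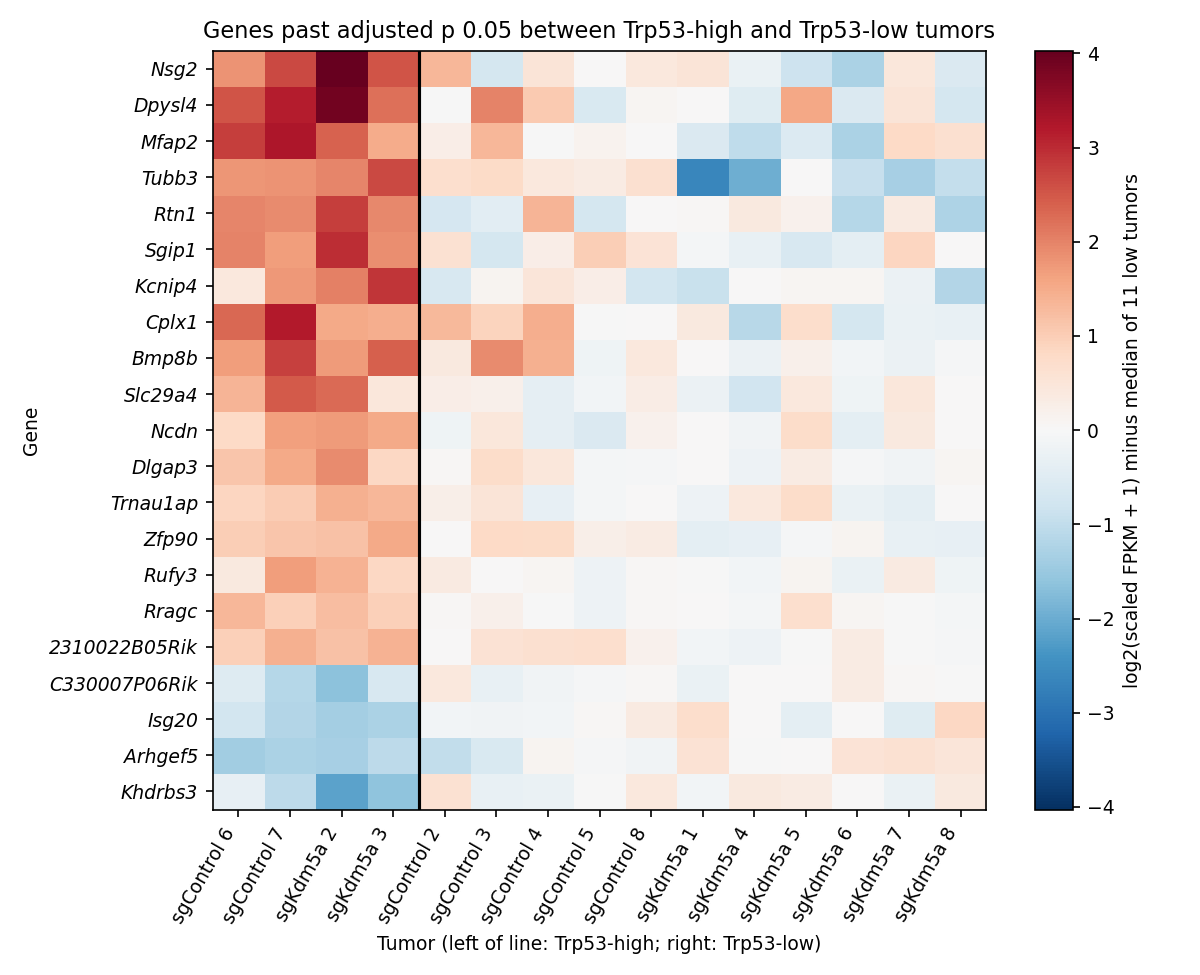
Each cell is log2(scaled FPKM + 1) of a gene (rows) in a tumor (columns) minus the median of the 11 low tumors, with the 4 high tumors left of the line and red for higher levels. The 17 higher genes shown are red in the high tumors, and sgControl tumors 3 and 4 and sgKdm5a tumor 5 show raised levels for some of them among the low tumors.

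Genes that p53 activates did not separate the classes. Of 48 listed targets, 47 were in the table and 45 were tested, and none passed the adjusted threshold in limma, with 4 higher and 5 lower at an unadjusted p under 0.05. Over all tested genes 10.5% were higher and 7.74% lower at that level, and 52.5% lay above 0. The median difference of the targets was -0.04, with 20 above 0 and 25 below. Averaged over the list, the log2 level was 3.39, 3.34, 3.63 and 3.49 in the 4 high tumors and 3.22 to 3.74 in the low tumors, so the high tumors lay inside the range of the low ones.

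Cdkn1a, the gene of the cell cycle inhibitor p21 and a much-used readout of p53 activity, was at 124, 78.0, 164 and 194 FPKM in the high tumors. The low tumors spanned 59.9 to 207 FPKM with a median of 108.5 FPKM. Both classes covered much the same range, and the difference was 0.31 ± 0.31 (SE, adjusted p = 0.606). Mdm2, the ubiquitin ligase of p53, was at 26.1, 24.5, 45.7 and 32.3 FPKM against 20.9 to 37.1 FPKM, a difference of 0.10 ± 0.16 (SE, adjusted p = 0.754). Ccng1, a cyclin, differed by -0.49 (adjusted p = 0.262), Phlda3, an AKT inhibitor, by -0.43 (adjusted p = 0.433) and the receptor gene Eda2r by -0.42 (adjusted p = 0.702). Zmat3, an RNA-binding protein, differed by 0.11 (adjusted p = 0.745). The targets of smallest p were Rprm, a mediator of G2 arrest, at 1.77 ± 0.59 (SE, adjusted p = 0.141), which passed the filter only through the high tumors, and Rrm2b, a ribonucleotide reductase subunit, at -0.62 ± 0.21 (SE, adjusted p = 0.145).

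One of the promoter windows that RefSeq gives for Cdkn1a is shown because it holds the core spacing of a pair of adjoining p53 half-sites, which is CATG, 6 bases of any kind and CATG again, in capitals. It lies in GRCm38.p6 at chr17:29090729-29091028 on the plus strand. The motif reads the same on both strands and was present in 1 of 34 listed targets with a window, which was Cdkn1a, and in 0.377% of tested genes. The other windows of the targets do not hold these letters, which says nothing about binding elsewhere.
Cdkn1a: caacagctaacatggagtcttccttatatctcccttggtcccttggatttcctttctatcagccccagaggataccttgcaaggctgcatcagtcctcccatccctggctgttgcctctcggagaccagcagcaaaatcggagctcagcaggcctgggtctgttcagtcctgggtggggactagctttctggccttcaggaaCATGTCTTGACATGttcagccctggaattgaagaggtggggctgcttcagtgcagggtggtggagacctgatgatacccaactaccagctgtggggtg

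Genes whose products control p53 gave 16 of 21 tested members above 0 and a median of 0.20, with 0 passing in limma and 2 higher at an unadjusted p under 0.05. Of all tested genes 52.5% lay above 0 and 10.5% were higher at that level. Cdkn2a, which encodes ARF and p16, was at 137, 98.2, 247 and 146 FPKM against 62.1 to 255 FPKM, a difference of 0.20 (adjusted p = 0.720). Ppp1r13l, the gene of the p53 inhibitor iASPP, was at 13.4, 10.8, 14.6 and 12.03 FPKM in the high tumors and at 3.70 to 9.84 FPKM in the low tumors. Its classes did not overlap, but the difference of 0.91 ± 0.19 (SE, adjusted p = 0.0786) did not pass. Of the decay factors that act on transcripts with premature stops, 17 of 18 lay above 0 with a median of 0.18, 0 passed in limma and 5 were higher at an unadjusted p under 0.05. Among them Rbm8a differed by 0.52 (adjusted p = 0.104) and Magoh by 0.78 (adjusted p = 0.138), both exon junction proteins.

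Of the other loci that the guides are read to target none passed in limma, and 1, Kdm5a, was higher at an unadjusted p under 0.05. Rb1, the retinoblastoma gene, differed by -0.44 ± 0.23 (SE, adjusted p = 0.314) and Rbl2, which encodes its relative p130, by 0.24 ± 0.22 (SE, adjusted p = 0.582). Kdm5a, a histone H3 lysine 4 demethylase gene, was at 7.48 and 7.72 FPKM in the sgControl-labelled and at 20.01 and 17.3 FPKM in the sgKdm5a-labelled high tumors. In the low tumors it was 5.58 to 8.47 FPKM under the sgControl label and 8.43 to 14.3 FPKM under the sgKdm5a label. The difference was 0.39 ± 0.16 (SE, adjusted p = 0.212), and under the sgKdm5a label both high tumors lay above the 6 low ones. Kdm5a RNA was thus not lower under the sgKdm5a label. Whether Kdm5a was edited in these tumors was not measured, and tumors are named here by label only.

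Interferon-stimulated genes lay lower in the Trp53-high tumors as a list, but no member passed. All 20 tested members lay below 0, where 47.5% of all tested genes did, and their median was -0.997. In limma 0 passed the adjusted threshold, and 14 were lower at an unadjusted p under 0.05. Their mean log2 level was 2.88, 2.34, 1.92 and 2.58 in the 4 high tumors and 2.60 to 4.23 in the low tumors, with a low median of 3.50. The low tumors sgKdm5a tumor 5 and sgKdm5a tumor 7, at 2.78 and 2.60, fell within the range of the high class.

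Isg15, a ubiquitin-like antiviral protein, was at 7.45, 3.19, 1.30 and 5.92 FPKM in the high tumors and at 7.69 to 49.7 FPKM in the low tumors, with a low median of 20.96 FPKM. The classes did not overlap, and the difference was -2.06 ± 0.43 (SE, adjusted p = 0.0786). sgKdm5a tumor 2 was the lowest of the high tumors. Ifit2, of the same list, differed by -0.05 (adjusted p = 0.937). Ifit3, an interferon-induced RNA-binding family member, was at 6.38, 4.43, 1.80 and 2.34 FPKM against 1.11 to 48.7 FPKM, a difference of -1.15 ± 0.59 (SE, adjusted p = 0.310).

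Promoter windows of Isg15 and Ifit3 are shown for the site through which interferon-activated factors are known to act. Capitals mark GAAA, 2 bases of any kind and GAAA again, on either strand, where neighbouring matches may overlap. It was present in 10 of the 16 listed interferon genes with a window (62.5%) and in 3.62% of tested genes. Among the 22 genes past the threshold, 18 had a window and 2 of them, Mfap2 and Nsg2, held it. Isg15 lies in GRCm38.p6 at chr4:156200769-156201068 on the minus strand and Ifit3 at chr19:34583279-34583578 on the plus strand, both from RefSeq.
Isg15: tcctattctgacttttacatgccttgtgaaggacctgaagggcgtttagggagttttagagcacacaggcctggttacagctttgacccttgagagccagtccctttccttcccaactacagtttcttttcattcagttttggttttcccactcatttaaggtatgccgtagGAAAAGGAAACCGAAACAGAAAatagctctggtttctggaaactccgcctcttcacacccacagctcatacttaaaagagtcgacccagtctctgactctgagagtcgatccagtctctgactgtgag
Ifit3: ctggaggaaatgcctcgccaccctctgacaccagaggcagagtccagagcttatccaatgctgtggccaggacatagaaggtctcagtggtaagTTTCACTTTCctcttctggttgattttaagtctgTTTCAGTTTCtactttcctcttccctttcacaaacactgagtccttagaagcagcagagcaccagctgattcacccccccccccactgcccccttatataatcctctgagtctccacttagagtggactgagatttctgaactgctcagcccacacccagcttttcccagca

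Class I antigen presentation genes lay lower in the same tumors. All 10 tested members were below 0 with a median of -0.85, 0 passed in limma and 6 were lower at an unadjusted p under 0.05. Of all tested genes 47.5% lay below 0 and 7.74% were lower at that level. B2m, the light chain of class I molecules, was at 526, 454, 514 and 944 FPKM against 412 to 2532 FPKM, with a low median of 1402 FPKM. The low tumor sgKdm5a tumor 5 was below all high tumors, and the difference was -1.13 ± 0.38 (SE, adjusted p = 0.145). H2-K1, a class I heavy chain, differed by -1.16 (adjusted p = 0.128) and Tapbp, which loads peptide, by -0.91 (adjusted p = 0.117).

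Epithelial genes also lay lower, with all 10 tested members below 0 and a median of -0.69. None passed in limma, and 6 were lower at an unadjusted p under 0.05. The shares over all tested genes were 47.5% below 0 and 7.74% lower at that level. Cldn3, a tight junction claudin, was at 63.1, 46.4, 55.1 and 89.1 FPKM against 80.4 to 222 FPKM, with a low median of 121 FPKM. Only sgKdm5a tumor 3 reached the low range, and the difference was -1.0 ± 0.21 (SE, adjusted p = 0.0786). Cldn4 differed by -2.25 (adjusted p = 0.116) and Cldn7 by -0.93 (adjusted p = 0.104).

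**Figure D3:**
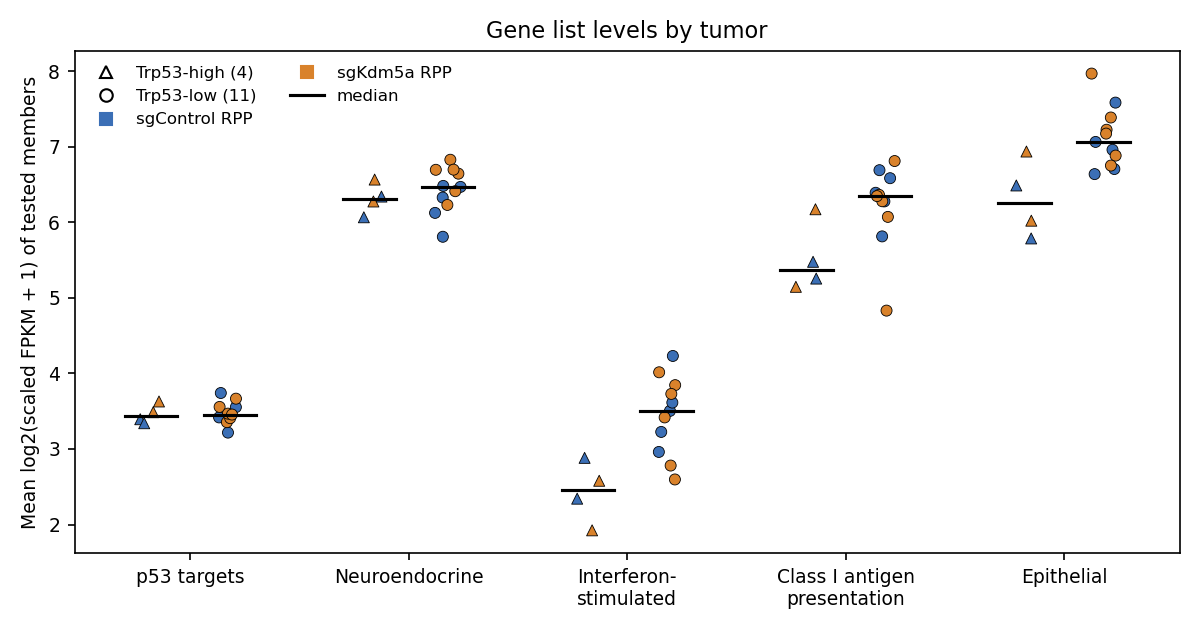
Mean log2(scaled FPKM + 1) over the tested members of 5 gene lists (horizontal axis) in each tumor, with triangles for the 4 Trp53-high and circles for the 11 Trp53-low tumors, color for the sgRNA label and a bar at the median. The p53 target and neuroendocrine lists overlap between classes, and the other 3 have lower medians in the high tumors with overlap.

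Neuroendocrine markers, which the labelled tumor type is defined by, were present in both classes. The neuroendocrine list had 25 tested members, a median of -0.10 and 11 members above 0, and 0 passed in limma, with 2 higher and 1 lower at an unadjusted p under 0.05. The mean log2 level of its members was 6.34, 6.07, 6.27 and 6.56 in the 4 high tumors and 5.81 to 6.83 in the low tumors, so the classes overlapped. Prox1, a homeobox transcription factor, differed by 0.64 (adjusted p = 0.122). Among all tested genes 10.5% were higher and 7.74% lower at the unadjusted level, and 47.5% lay below 0. Of 16 tested NOTCH pathway genes 0 passed in limma, and 3 were lower and 3 higher at an unadjusted p under 0.05. Hes1, a NOTCH target and transcriptional repressor, differed by -1.11 ± 0.25 (SE, adjusted p = 0.0786), Nrarp, a NOTCH feedback regulator, by -0.50 (adjusted p = 0.117) and Hey2, another target, by -0.68 (adjusted p = 0.242). The ligand gene Dll4 differed by 0.84 (adjusted p = 0.252), the coactivator gene Maml1 by 0.43 (adjusted p = 0.207) and Rbpj, the DNA-binding partner of NOTCH, by 0.34 (adjusted p = 0.263). Of the YAP and non-neuroendocrine genes, 12 of 13 lay below 0 with a median of -0.39, 0 passed in limma and 1 was lower at an unadjusted p under 0.05, namely Anxa1 at -1.84 ± 0.48 (SE, adjusted p = 0.0948).

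No proliferation gene of the lists passed in limma. Mki67, a marker of cycling cells, was at 106, 97.7, 102 and 57.6 FPKM against 36.3 to 140 FPKM, a difference of 0.22 ± 0.25 (SE, adjusted p = 0.658). Of 20 E2F target and S phase genes, 18 lay above 0 with a median of 0.21, 0 passed in limma, and 3 were higher and 1 lower at an unadjusted p under 0.05. Over all tested genes 10.5% were higher and 7.74% lower at that level, and 52.5% lay above 0. Cdt1, a replication licensing factor, differed by 0.97 (adjusted p = 0.0786), Gins2, a subunit of the replicative helicase complex, by 0.65 (adjusted p = 0.130), Mcm6, a helicase subunit, by 0.44 (adjusted p = 0.272) and Pola1, a DNA polymerase subunit, by -0.81 (adjusted p = 0.112). The mitosis list had a median of 0.06, 0 members passed in limma and 2 were higher at an unadjusted p under 0.05. These were Cdc20, an activator of the anaphase-promoting complex, at 1.03 (adjusted p = 0.174) and Birc5, which encodes survivin, at 0.58 (adjusted p = 0.269).

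Markers of other cells that bulk lung tumors can hold lay mostly below 0 here, but their medians moved widely with the setting. Of all tested genes 47.5% lay below 0. The fibroblast list had 9 of 10 tested members below 0 (median -0.56), the endothelial list 11 of 13 (median -0.29), the alveolar type 2 list 7 of 8 (median -0.86) and the club cell list 5 of 5 (median -0.87). The summed level of the club cell list ran from 226 to 1013 FPKM in the high tumors and from 13.8 to 56380 FPKM in the low tumors. That of the fibroblast list ran from 59.3 to 490 FPKM and from 61.6 to 1747 FPKM, and that of the endothelial list from 95.1 to 163 FPKM and from 84.3 to 276 FPKM. For the alveolar type 2 list the ranges were 49.0 to 1212 FPKM and 51.7 to 5414 FPKM. In each of these 4 lists the highest sum was that of a low tumor, and no member was at 0 in every tumor. The macrophage list had a median of -0.09, with 7 of 13 below 0 and sums of 389 to 886 FPKM in the high and 369 to 2256 FPKM in the low tumors. No member of these 5 lists passed in limma, and 1 macrophage gene was lower at an unadjusted p under 0.05. Over the alternative settings the median ran from -0.90 to 0.08 for the fibroblast, -0.54 to 0.08 for the endothelial, -1.80 to -0.07 for the alveolar type 2, -1.47 to 0.22 for the club cell and -0.16 to 0.19 for the macrophage list. The part of such cells in the class I, interferon and epithelial values was not tested.

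Of the 18 higher genes 7 lie on chromosome 4 in GRCm38.p6, a count made after the values were seen. They are Mfap2, Rragc, Ncdn, Dlgap3, Trnau1ap, Bmp8b and Sgip1, and 6.56% of the tested genes with a place lie on that chromosome. Without those that passed the filter only through the high tumors, 5 of 13 lie there. Its 855 tested genes had a median of 0.27, and 27.5% of them were higher at an unadjusted p under 0.05. Chromosome 12 had the same median, with 20.7% higher. Mycl, the MYC family gene often amplified in small cell lung cancer, lies 2 places from Bmp8b in the order of tested genes.

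Mycl was at 102, 307, 172 and 104 FPKM in the high tumors and at 11.04 to 222 FPKM in the low tumors, with a low median of 33.8 FPKM. The low tumors sgKdm5a tumor 5, at 221.5 FPKM, and sgControl tumor 3, at 101 FPKM, stood with or next to the high class. The difference of 1.88 ± 0.62 (SE, adjusted p = 0.139) did not pass. The 50 tested genes nearest to Mycl had a median of 0.72, with 46 above 0, 2 past the adjusted threshold (Rragc and Bmp8b, the second of which needed the high tumors to pass the filter) and 35 higher at an unadjusted p under 0.05. Relative to the median of the low tumors, the median level of these 50 genes was 0.76, 0.70, 0.83 and 0.63 in the high tumors. It was 0.80 in sgKdm5a tumor 5, 0.51 in sgControl tumor 3 and -0.19 to 0.07 in the other 9 low tumors. A raised level of these genes was thus shared by all 4 high tumors and 2 low ones. It was not particular to this stretch. Of 42 runs of 20 neighbouring tested genes along chromosome 4, 19 had every high tumor above the low median. The run from Mecr to Eya3, which starts 101 places from Mycl, had a median difference of 0.70. That of the run ending with Mycl was also 0.70. Nfib, a chromatin-opening factor on the same chromosome, was at 43.7, 145.5, 70.2 and 35.7 FPKM against 10.6 to 40.9 FPKM, a difference of 1.36 ± 0.31 (SE, adjusted p = 0.0798). DNA copy number was not measured in this table.

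**Figure D4:**
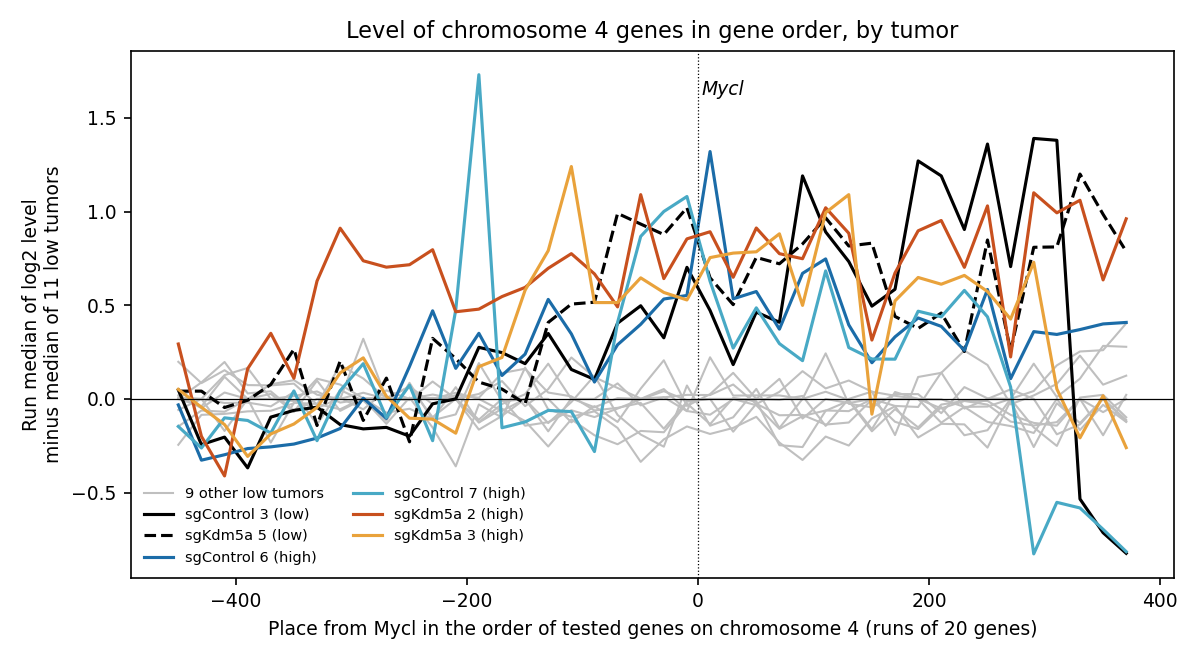
Median over runs of 20 neighbouring tested genes on chromosome 4 of log2(scaled FPKM + 1) minus the median of the 11 low tumors (vertical axis), against place from Mycl in gene order (horizontal axis), 1 line a tumor. Around Mycl the 4 high tumors and the low tumors sgControl 3 and sgKdm5a 5 lie above the other 9 low tumors, which lie near 0, the reference taken from the low class. Raised levels also occur far from Mycl, as in the run from Mecr to Eya3.

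Over all 15 tumors the genes whose levels ranked most like Trp53 were Ckb (brain creatine kinase, Spearman correlation 0.84), Sardh (sarcosine dehydrogenase, 0.83) and Tma16 (a ribosome-associated protein, 0.83). Those ranked most opposite were AI661453 (-0.91), Itgb5 (-0.88) and Nebl (nebulette, an actin-binding protein, -0.81). Within the 11 low tumors alone the Spearman correlation was 0.61 for Ckb, 0.77 for Sardh, 0.82 for Tma16, -0.87 for AI661453, -0.76 for Itgb5 and -0.68 for Nebl. These are the extremes among 13103 genes and are given as a description.

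The difference between classes was set against the sgRNA label in a limma interaction term, with 2 high tumors under each label. It passed for 5 genes (0.0382% of those tested). Acrbp, an acrosin-binding protein, was at 28.6 and 29.5 FPKM in the sgControl-labelled high tumors and at 1.60 and 2.68 FPKM in the sgKdm5a-labelled ones, with 1.61 to 5.21 FPKM in the low tumors. Arrdc4, an arrestin domain protein, was at 5.64 and 6.26 FPKM in the first pair and at 76.8 and 27.2 FPKM in the second. Leaving out a tumor gave 0 to 9 such genes, and 0 without sgControl tumor 6, sgControl tumor 7 or sgKdm5a tumor 2.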

How the data were processed

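Bulk tumor RNA was extracted on columns and sequenced from stranded total RNA libraries, per the labels' protocols. Genome build mm9 and the tools STAR (2.5.1b) and Cufflinks (2.2.1) are listed in the submitters' processing notes, with no role stated. The deposited values are read as FPKM, inferred from the values, although the authors' sheet is named for counts. The gene annotation is not given in the sources used here. Read depth is unknown, so no counting interval is given and precision comes from the spread between tumors.

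Of 24043 entries, 27 with names turned into dates were left out. Each of 15 tumors was scaled to a common median over the genes reaching 1 FPKM in 8 or more tumors, and log2(scaled FPKM + 1), which understates changes of low genes, was fitted in limma 3.58.1 (R 4.3.3, with 12 residual degrees of freedom and a robust, trended variance) for Trp53 class and sgRNA label. Trp53 was not tested. p-values were adjusted by Benjamini-Hochberg, with a threshold of 0.05. The fit was also run on simulated data in which genes varied independently of one another. Such data cannot show how reliable the calls are where genes move together.

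The classes, the 32 gene lists and the rules for naming genes were chosen with earlier results of these data known. The rule names in each direction the 12 largest differences past the threshold, or, where fewer than 5 passed, those and the next genes by p up to 8. It also names up to 4 passing members of a list or its 2 of smallest p, the 5 genes most and least like Trp53 by rank, and Trp53, Wrap53, Cdkn1a, Mdm2, Ccng1, Phlda3, Eda2r, Zmat3, Cdkn2a, Rb1, Rbl2, Kdm5a and Mki67. Not every gene it names is reported here. Other genes, chromosome 4 and the neighbours of Mycl were chosen after their values were seen. GRCm38.p6 tables gave gene order and promoter windows only. Alternatives were scaling, quantile normalization, pseudocount 0.1, no filter, no or an added covariate, sample weights and a block on tumor number. Others were all 16 tumors, continuous Trp53, label numbers 190 to 238 alone and leaving out each tumor.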

Additional observations from a re-analysis of the deposited data

Results flagged for a closer look

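In the 4 Trp53-high tumors, 5 of 92 named genes had a tumor far from the other 3 by Dixon's criterion on the log2 scale at the 95% level, and chance flags about 1 in 20 such groups. sgKdm5a tumor 2 was apart for 4 of them. It held the highest level of Rtn1 at 145 FPKM, of Hba-a2 at 18.02 FPKM and of Plk3 at 19.98 FPKM, and the lowest of Rprm at 2.28 FPKM. sgKdm5a tumor 3 was apart with the lowest Mki67 at 57.6 FPKM. The other 3 high tumors held 0.00661 to 0.00970 FPKM of Hba-a2, a hemoglobin gene, and the low tumors 0.00893 to 72.8 FPKM. Hemoglobin RNA was not absent from those 3 tumors, where Hbb-bt was at 49.07, 87.65 and 177.9 FPKM. Hba-a1 differed between classes by -0.67 (limma, adjusted p = 0.546).

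The difference between Trp53 classes itself differed between sgRNA labels for 5 genes by limma's interaction term (log2, sgKdm5a-labelled minus sgControl-labelled). It was -3.63 for Acrbp (adjusted p = 0.00733), -1.99 for Spice1, 3.07 for Arrdc4, -1.94 for Thap2 and 1.95 for BC029214 (adjusted p = 0.0411 for each of the last 4). Spice1, a centriole protein, was at 1.10 and 2.33 FPKM in the sgKdm5a-labelled high tumors and at 5.40 to 9.38 FPKM in the low tumors. Thap2 was at 1.90 and 1.74 FPKM there, against 4.37 to 7.61 FPKM in the low tumors. Each label has 2 high tumors.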

How the results depend on the processing

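None of the 22 genes past the threshold changed direction in any of the 26 other settings, but of 548 gene and setting pairs 267 kept the call and 281 lost it. Rragc and Mfap2 kept it in 21 settings each. The counts of higher and lower genes were 7 and 1 with pseudocount 0.1, 10 and 1 without a filter, 10 and 1 with the number series as covariate, 66 and 27 with sample weights, and 16 and 2 with all 16 tumors. They were 0 and 0 for log2 Trp53 as a continuous term (limma, 801 higher and 683 lower at an unadjusted p under 0.05). In label numbers 190 to 238 alone they were also 0 and 0. Leaving out 1 tumor gave 0 to 136 higher and 0 to 65 lower genes, and 0 to 9 genes for the interaction, which gave 3 without scaling. The cause was not tested. The median of the p53 targets ranged from -0.11 to 0.08 and that of the neighbours of Trp53 from 0.22 to 0.39.

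With tumor number as a replicate block 0 genes were higher and 0 lower (limma, 5 residual degrees of freedom, 685 and 551 at an unadjusted p under 0.05). Correlations of same-numbered tumors ran from -0.32 to 0.36, and the best match was the own number only for number 8. Whether the tumor number marks a shared batch was not tested. Under the block the sign turned for Eda2r (0.34), Cdkn2a (-0.011), Mki67 (-0.024) and Myc (0.21). In label numbers 190 to 238 alone it turned for Eda2r (0.11) and Rbl2 (-0.0099). Leaving out 1 tumor turned the sign for Ifit2 (-0.16 to 0.059), Mdm2 (-0.041 to 0.18), Cdkn2a (-0.047 to 0.39) and Rbl2 (-0.0029 to 0.41). None of these genes passed the threshold.

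Read depth is unknown, the classes hold 4 and 11 tumors, and the edits of each tumor and its content of other cells were not measured.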

Other observations

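Among genes not yet described, Uchl1, a ubiquitin hydrolase abundant in neuroendocrine cells, was at 557, 456, 782 and 564 FPKM in the Trp53-high tumors and at 238 to 584 FPKM in the low tumors (difference 0.65, adjusted p = 0.147). Cdkn2b, an inhibitor of CDK4 and CDK6, was at 4.57, 6.33, 2.41 and 3.98 FPKM against 3.14 to 15.2 FPKM (difference -1.10, adjusted p = 0.0864). Trit1, a tRNA modifying enzyme among the neighbours of Mycl, was at 28.8, 31.8, 43.7 and 30.9 FPKM against 4.66 to 28.4 FPKM (difference 1.59, adjusted p = 0.0786). The highest low tumor for Trit1 was sgKdm5a tumor 5. None of these 3 genes passed the threshold in limma.

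The remaining gene lists had medians nearer to that of all tested genes or few tested members, and 0 members of any passed in limma. Among all tested genes 10.5% were higher and 7.74% lower at the unadjusted level. The median was 0.57 for 5 small cell subtype factors (2 higher at an unadjusted p under 0.05), -0.11 for 16 NOTCH pathway genes (3 higher, 3 lower), 0.12 for 13 RB-related genes (1 higher, 1 lower) and 0.13 for 4 genes of the p53 family and ASPP proteins (1 higher). It was 0.00083 for 23 DNA damage genes (1 higher, 1 lower), -0.07 for 11 BCL2 family genes (1 higher), -0.24 for 9 epithelial-mesenchymal genes (1 higher) and -0.76 for 5 erythroid genes (1 lower). It was 0.00029 for 3 T and NK cell genes (1 lower). At the unadjusted level 0 members passed of the immediate early (-0.19), hypoxia and glycolysis (-0.07), histone (0.16), B and plasma cell (-0.43), neutrophil (-0.23), alveolar type 1 (-0.14) and ciliated cell (-0.59) lists.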
